A study of Mus musculus with 13 samples.

Results

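STAT5A and LSD1 occupancy was compared in Ba/F3 cells, an established mouse pro-B cell line that needs interleukin 3 (IL3) to grow and survive, after the cytokine had been withdrawn. All 4 libraries came from cells kept in 1 ng/mL IL3 and then deprived of it for 6 h. Chromatin was fixed with formaldehyde and precipitated with an antibody to STAT5a (sc1081X) in 2 libraries and to LSD1 (ab17721) in the other 2, described as biological replicates. Regions were taken from the list of called regions of each library, on assembled chromosomes of mm10, and regions of different lists that overlapped by at least 1 bp were merged. This gave 18634 merged regions, of 35494 over all 12 libraries of the series. The lists called on the pooled library of each protein, with 5043 STAT5A and 16886 LSD1 regions, were used as support. Groups that enter below only as a reference are STAT5A and LSD1 after deprivation and 30 min of 10 ng/mL IL3 (with IL3), and HDAC3 without IL3. HDAC3 with IL3 enters only through sets taken over the whole series, such as the regions called in all 6 pooled lists.

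STAT5A is a latent transcription factor of the cytoplasm that JAK kinases phosphorylate at the IL3 receptor, after which it forms dimers and binds palindromic TTCNNNGAA elements. LSD1, encoded by Kdm1a, is a flavin-dependent demethylase of histone H3 lysine 4 that has no sequence specificity of its own and is brought to DNA in CoREST complexes by factors such as GFI1 and GFI1B. In blood cell precursors LSD1 is best known for its place at enhancers of genes of alternative lineages.

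The sequences below are the 150 bases before the listed start of the genes whose promoter window (250 bases before to 50 after a start, RefSeq, GRCm38.p6) held the highest-scoring regions. They are shown because the letters at the strongest STAT5A regions differed from those at the LSD1 regions. Capitals mark TTCNNNGAA, the STAT element, and CGCTCTA and CTCTATG, each on either strand. The latter 2 strings were noticed in these windows, and no factor is assigned to them. Of 21263 windows of protein-coding genes, 1306 (6.14%) held a pooled region of both proteins, 744 (3.5%) of STAT5A alone and 2798 (13.2%) of LSD1 alone. The 4 windows with the highest STAT5A score among those of both proteins, and Polq, which was added for its CTCTATG, read 5′ to 3′ as follows.
Arhgef1 (chr7:24904196-24904345, plus strand): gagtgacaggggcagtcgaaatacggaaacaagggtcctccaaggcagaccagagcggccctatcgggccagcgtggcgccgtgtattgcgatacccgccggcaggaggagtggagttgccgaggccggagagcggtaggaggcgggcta
Pcbp2 (chr15:102470389-102470538, plus strand): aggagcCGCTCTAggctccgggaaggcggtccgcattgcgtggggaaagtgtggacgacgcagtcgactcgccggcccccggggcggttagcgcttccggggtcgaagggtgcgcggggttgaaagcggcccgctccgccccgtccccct
Cipc (chr12:86947193-86947342, plus strand): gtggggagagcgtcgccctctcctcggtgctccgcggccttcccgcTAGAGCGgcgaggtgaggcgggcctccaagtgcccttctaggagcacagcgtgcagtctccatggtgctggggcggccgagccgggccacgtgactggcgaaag
Ncbp3 (chr11:73047717-73047866, plus strand): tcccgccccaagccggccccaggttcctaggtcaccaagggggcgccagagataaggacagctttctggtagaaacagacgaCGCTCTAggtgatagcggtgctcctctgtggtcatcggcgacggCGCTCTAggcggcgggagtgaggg
Polq (chr16:37011636-37011785, plus strand): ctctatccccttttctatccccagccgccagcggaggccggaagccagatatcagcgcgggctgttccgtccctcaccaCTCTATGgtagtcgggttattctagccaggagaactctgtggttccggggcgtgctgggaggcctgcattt
The 4 highest windows of STAT5A alone follow. The class is that of the window: at Atg101 the STAT5A region reaches into the window, while the low pooled LSD1 region that overlaps it (20.3) lies outside.
Mrpl12 (chr11:120484487-120484636, plus strand): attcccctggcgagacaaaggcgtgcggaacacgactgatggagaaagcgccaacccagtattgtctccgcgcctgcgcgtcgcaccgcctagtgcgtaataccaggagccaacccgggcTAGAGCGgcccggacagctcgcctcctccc
Ttbk2 (chr2:120850419-120850568, minus strand): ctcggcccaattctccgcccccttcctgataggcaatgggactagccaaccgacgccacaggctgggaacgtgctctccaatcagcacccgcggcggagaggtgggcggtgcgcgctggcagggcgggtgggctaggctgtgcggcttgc
Atg101 (chr15:101284151-101284300, plus strand): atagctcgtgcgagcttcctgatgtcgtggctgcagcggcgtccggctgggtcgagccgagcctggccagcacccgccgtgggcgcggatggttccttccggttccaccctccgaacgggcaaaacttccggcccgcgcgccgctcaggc
Tepsin (chr11:120098732-120098881, minus strand): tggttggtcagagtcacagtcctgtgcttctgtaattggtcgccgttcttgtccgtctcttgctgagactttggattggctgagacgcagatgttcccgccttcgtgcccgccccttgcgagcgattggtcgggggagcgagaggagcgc
The 4 highest of LSD1 alone, by LSD1 score, follow.
Milr1 (chr11:106751076-106751225, plus strand): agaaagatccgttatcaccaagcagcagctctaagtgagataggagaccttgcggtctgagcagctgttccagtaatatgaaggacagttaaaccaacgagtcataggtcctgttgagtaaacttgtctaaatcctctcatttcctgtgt
Ubxn10 (chr4:138724857-138725006, minus strand): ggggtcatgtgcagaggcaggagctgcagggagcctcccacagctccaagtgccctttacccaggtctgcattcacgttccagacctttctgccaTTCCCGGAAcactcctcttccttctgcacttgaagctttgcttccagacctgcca
Aldh3b1 (chr19:3929779-3929928, minus strand): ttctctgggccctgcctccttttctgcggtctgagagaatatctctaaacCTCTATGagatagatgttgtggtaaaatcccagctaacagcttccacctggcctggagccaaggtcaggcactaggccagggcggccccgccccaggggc
Spg21 (chr9:65460787-65460936, plus strand): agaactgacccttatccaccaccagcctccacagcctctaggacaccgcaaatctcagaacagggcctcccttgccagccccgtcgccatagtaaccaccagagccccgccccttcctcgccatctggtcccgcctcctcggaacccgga

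Over all 21263 windows, CGCTCTA was in 429 and CTCTATG in 575, and 4.55% held either. Among the 200 windows with the highest pooled STAT5A score, 62 (31.0%) held either, against 14 (7.0%) of the 200 with the highest pooled LSD1 score. In the replicate lists this share was 39.0% of the 59 windows with a region in replicate 1 and 27.0% of the 200 highest of replicate 2. Both STAT5A libraries were above both LSD1 libraries, where 7.73% of the 194 windows of replicate 1 and 8.0% of the 200 highest of replicate 2 held either string. With IL3 the 200 highest STAT5A windows held either string in 11.5% and 13.5% by replicate, which lay between the LSD1 libraries and the STAT5A libraries without IL3. Within the STAT5A windows without IL3 the share went with the score, from 20.7% in the highest-scoring 410 windows to 3.91% in the lowest-scoring 409. The strings also lay close to the middle of the regions: the nearest CGCTCTA was at a median of 37 bp from the STAT5A region's centre (108 windows) and the nearest CTCTATG at 39 bp (73 windows). The corresponding medians from LSD1 centres were 58 bp (158 windows) and 76 bp (112 windows). The strings were picked for standing out in these windows, so these shares describe the windows and test nothing.

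The STAT element was not common at these promoters. TTCNNNGAA was in 7.69% of all windows, 5.05% of those of both proteins, 5.78% of STAT5A alone and 6.04% of LSD1 alone. It was in 3.5% of the 200 windows of highest STAT5A score without IL3, and in 53.5% of the 200 highest with IL3. By replicate the share was 6.78% (4 of 59) and 3.5% without IL3, against 57.0% and 25.5% with IL3, so the groups did not overlap. Where a STAT5A window without IL3 did hold the element, it lay at a median of 140 bp from the region's centre, farther than any of the strings above. From LSD1 centres the element lay at a similar median of 128 bp (235 windows). Median GC content was 66.0% in windows of both proteins, 64.3% in STAT5A alone, 62.7% in LSD1 alone and 56.3% in all, and the part of base content in the shares of letters was not tested.

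Other promoter elements were searched by fixed letters on both strands. The ETS string CCGGAAG was in 24.0% of windows of both proteins, 164 of the 744 of STAT5A alone and 24.8% of LSD1 alone, against 11.6% of all windows, and the SP/KLF string GGGCGGG in 59.6%, 52.7% and 53.8%, against 33.9%. The NF-Y string CCAAT was in 46.4% of the STAT5A-alone windows (345 of 744), 34.5% of those of both (451 of 1306), 34.7% of LSD1 alone and 38.2% of all. The GATA string AGATAA was less common than in all windows (9.65%), at 4.98%, 3.23% and 5.22%. A match describes the letters of a window and does not show that a factor was bound.

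The libraries were unequal, and STAT5A replicate 1 stood apart. It held 352 regions and STAT5A replicate 2 held 4504, while LSD1 replicates 1 and 2 held 1005 and 15783. Scores within a list moved in equal steps, and on the assumption that 1 step stands for 1 read, relative depths were 2.77 and 4.46 for STAT5A and 1.0 and 4.95 for LSD1, with the lowest called regions at 4 or 5 reads. On this reading the shallower library of each protein had the shorter list. Across proteins, STAT5A replicate 1 was deeper than LSD1 replicate 1 and held fewer regions. STAT5A replicate 1 lacked high-scoring regions of STAT5A replicate 2, such as those near Axin2 (312.3), at Arhgef1 (217.3) and in Cdk8 (196.9). Why regions are missing from the short lists was not tested, and a missing call does not show that a protein was absent. Of the STAT5A replicate 1 regions, 23.6% were found in STAT5A replicate 2 and 63.1% in LSD1 replicate 2. Of the STAT5A replicate 2 regions, 1.8% were found in STAT5A replicate 1 and 43.1% in LSD1 replicate 2. The LSD1 replicates overlapped more, with 76.7% of replicate 1 found in replicate 2. At equal size, the 350 highest-scoring regions of each list, 34 were shared between the STAT5A replicates, 162 between the LSD1 replicates and 25 to 41 between a STAT5A and an LSD1 library. The 2 STAT5A libraries were thus no more alike than STAT5A and LSD1 libraries were, and of the pooled STAT5A regions 65.3% were found in replicate 2 and 4.68% in replicate 1. A set of 193 merged regions was called in all 6 pooled lists of the series, whatever the antibody, and results are given with and without these where they move.

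Region numbers did not separate the proteins. LSD1 lists held 8394.0 ± 10449.6 regions (SD, n = 2) and STAT5A lists 2428.0 ± 2935.9 (SD, n = 2), a log2 difference of 1.66 (two-sided exact permutation p = 0.667, where 2 against 2 libraries cannot go below 0.333).

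**Figure D1:**
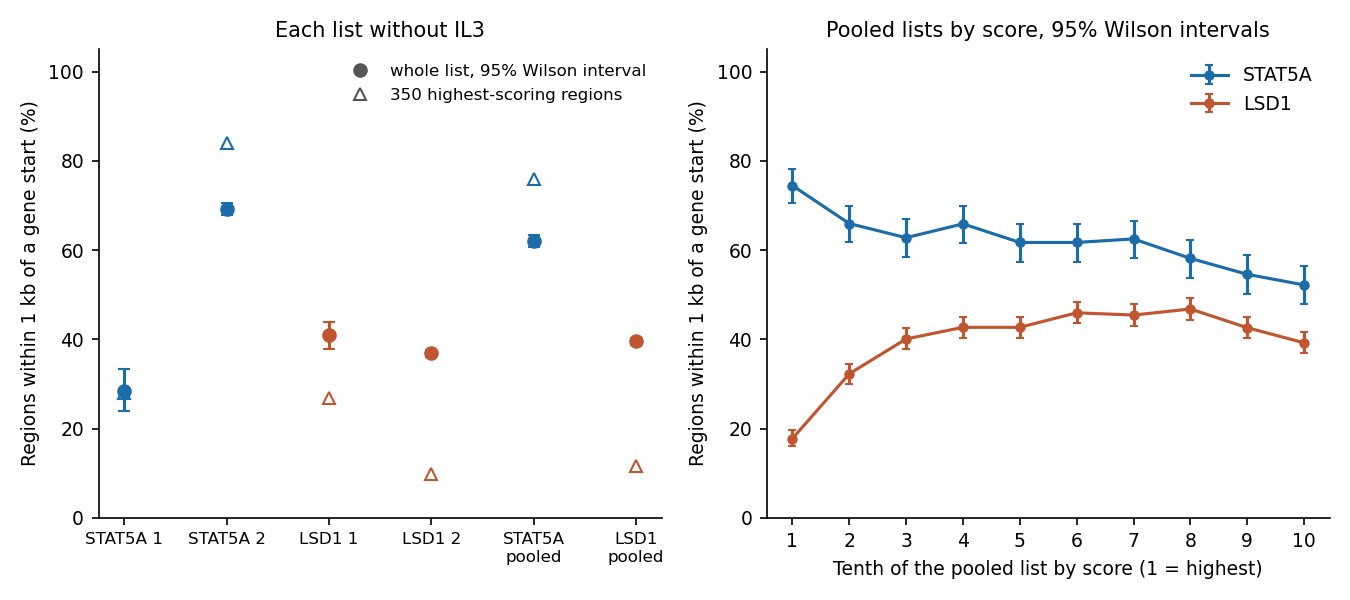
Left, share of regions at a gene start (centre no more than 1 kb away) in each list (filled points with 95% Wilson intervals) and in its 350 highest-scoring regions (open triangles). Right, the same share along the 2 pooled lists, cut into 10 equal parts by score; STAT5A goes from 74.5% in the highest part to 52.2% in the lowest, and LSD1 rises from 17.8% to 39.2%.

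The strongest regions of STAT5A replicate 2 lay mostly at gene starts, and those of STAT5A replicate 1 and both LSD1 libraries mostly away from them. Regions no more than 1 kb from a start, measured from their centre, made up 28.4% (24.0 to 33.3) and 69.3% (67.9 to 70.6) of STAT5A replicates 1 and 2, and 40.9% (37.9 to 44.0) and 36.9% (36.1 to 37.6) of LSD1 replicates 1 and 2, with 95% Wilson intervals here and below. The STAT5A libraries lay on either side of the LSD1 libraries. LSD1 had 38.9% ± 2.86 and STAT5A 48.8% ± 28.9 (SD, n = 2 each), a difference of -9.97 points that did not exceed the spread between replicates (two-sided exact permutation p = 1). Without STAT5A replicate 1 the difference was -30.4 points, and without STAT5A replicate 2 it was 10.5 points. In the 350 highest-scoring regions the share was 28.0% and 84.0% for STAT5A and 26.9% and 9.71% for LSD1. The groups did not overlap, though STAT5A replicate 1 and LSD1 replicate 1 were close (two-sided exact permutation p = 0.333). By score the libraries differed: in STAT5A replicate 2 the share was 84.3% in the highest-scoring 10% and 64.2% in the lowest, and in STAT5A replicate 1, with 36 regions in the highest part, it was 25% and 22.9%. In LSD1 replicates 1 and 2 it was 15.8% and 16.6% in the highest-scoring 10% and 54.0% and 33.5% in the lowest.

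Over the 4 libraries, 2144 merged regions were called in at least 1 list of each protein, 2623 in STAT5A lists alone and 13867 in LSD1 lists alone. Of these, 65.0%, 68.1% and 33.0% lay at gene starts. Most were called in 1 library: 13170 in LSD1 replicate 2 only and 2499 in STAT5A replicate 2 only. Regions called in these 2 libraries and no other numbered 1659, of which 72.5% were at gene starts, while of the 132 called in STAT5A replicate 1 and LSD1 replicate 2 only, 17.4% were. Positions shared by the proteins thus differed with the STAT5A library they came from.

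All 4 libraries called 23 regions (0.123% of the merged regions), 6 of them at a gene start and 16 of them in all 6 pooled lists. Without STAT5A replicate 1 the other 3 libraries shared 238. A region inside Zfpm1 (chr8:122309386-122309679), which encodes the GATA1 partner FOG1, scored 38.3 and 54.3 in STAT5A replicates 1 and 2 and 181.4 and 240.7 in LSD1 replicates 1 and 2. A region 11331 bp from Gfi1b (chr2:28597873-28598366), which encodes a repressor that carries LSD1 to DNA, scored 49.2 and 23.8 for STAT5A and 211.7 and 298.6 for LSD1. Both were in all 6 pooled lists, as were the regions near Cbfa2t3, a corepressor of the ETO family, inside Gse1, a subunit of LSD1-CoREST complexes, and 67407 bp from Zfp36l2, which encodes an RNA-binding protein that destabilises AU-rich mRNA. Among the 7 not in all 6 lists were regions at the starts of Cipc, a regulator of the circadian CLOCK protein, Rin1, a RAS effector, and Zfp142. The Cipc region (chr12:86947062-86947409) differed from the rest of the 23 in that its STAT5A replicate 2 score, 163.0, was higher than its LSD1 scores of 90.7 and 45.7, though scores of separate lists are on separate scales.

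Both STAT5A libraries and neither LSD1 library called 16 regions (0.0859%), 12 of them at gene starts and none in all 6 pooled lists. Without the condition on STAT5A replicate 1 the count was 2518, and without that on LSD1 replicate 2 it was 62. The region in Hexim1 (chr11:103116440-103116674), 232 bp from its start, scored 87.5 and 47.5 in STAT5A replicates 1 and 2. Hexim1 encodes the inhibitor of the elongation kinase P-TEFb. The region at Maf1 (chr15:76351119-76351392), which encodes the repressor of RNA polymerase III, scored 43.8 and 81.5. Among the others were regions at the starts of Mrpl12, of the mitochondrial ribosome, of the DNA damage adaptor Mdc1, of the autophagy gene Atg101, of Rpl7l1 and of Ppp2r5b, near Nfic, Plekhh3 and Itprip, inside Kmt2d, Tmem223, Atf6 and Chd9, and 12124 bp from Cdk18. The pooled LSD1 list did hold a region at Mdc1 (27.9), Kmt2d and Tmem223 (25.4 each) and Atg101 (20.3), so at these the lack of an LSD1 call holds for the single libraries.

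Both LSD1 libraries and neither STAT5A library called 511 regions (2.74%), 27.8% of them at gene starts. The count was 13684 without the condition on LSD1 replicate 1. By the sum of ranks in the LSD1 replicates, a region inside Evi5, a regulator of mitotic progression, came first, with scores of 226.8 and 277.3 in LSD1 replicates 1 and 2. A region in Plin3, a lipid droplet coat protein gene, 1076 bp from its start, had 196.6 and 316.9. The region 4326 bp from Cebpe (chr14:54705946-54706128), the granulocyte transcription factor gene, had 181.4 and 262.0. The pooled STAT5A list, which is not bound to the replicate calls, held a region at Evi5 (18.9) and none at Plin3 or Cebpe. The rest of the 10 highest lay in Extl3, Manba, Lrmda and Tox2, and 58767, 48327 and 22895 bp from Gpr141, Azin1 and Olfr225. Those in Manba and Tox2 were in all 6 pooled lists. Pooled STAT5A scores at Manba, Gpr141, Lrmda and Tox2 were 12.6 to 18.9.

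In the pooled lists 2650 regions overlapped, which was 52.5% of the STAT5A regions (51.2 to 53.9) and 15.7% of the LSD1 regions (15.2 to 16.2). Without the regions in all 6 pooled lists the shares were 50.9% and 14.8%. These shares moved with the library used: set against LSD1 replicate 1 alone, 6.4% of pooled STAT5A regions overlapped, and with STAT5A replicate 1 alone in place of the pooled list, 66.2% of its regions overlapped a pooled LSD1 region. The centres of overlapping regions were a median of 50 bp apart (interquartile range 23 to 91). A pooled STAT5A region without LSD1 overlap lay a median of 1842 bp from the nearest LSD1 region, and 44.3% lay within 1 kb of one. A pooled LSD1 region without STAT5A overlap lay a median of 43861 bp from the nearest STAT5A region, and 9.83% lay within 1 kb. The lists differ in length (16886 LSD1 and 5043 STAT5A regions), and the part of list length in these distances was not tested.

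**Figure D2:**
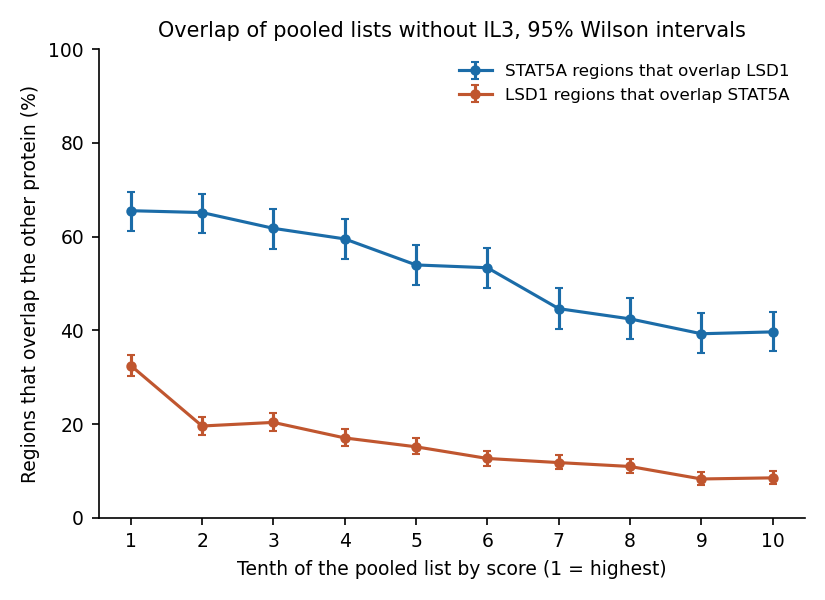
Share of pooled STAT5A regions that overlap a pooled LSD1 region and of pooled LSD1 regions that overlap a pooled STAT5A region, in each of 10 equal parts of its list by score, with 95% Wilson intervals. Overlap is higher at higher scores: from the highest-scoring to the lowest-scoring part it goes from 65.5% to 39.7% for STAT5A and from 32.5% to 8.53% for LSD1.

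Overlap was more common among high scores of both proteins. It was 65.5% in the highest-scoring 10% of STAT5A regions and 39.7% in the lowest, and 32.5% and 8.53% for LSD1. The median STAT5A score was 17.85 at shared and 16.8 at STAT5A-alone regions, which is less than 1 step of 2.087 apart, and the median LSD1 score was 30.4 at shared and 25.4 at LSD1-alone regions. Of LSD1 regions at gene starts 24.1% overlapped STAT5A, against 10.2% of those elsewhere, whereas STAT5A regions overlapped LSD1 about equally at starts (51.5%) and elsewhere (54.3%). By class, 60.7% of shared regions (58.8 to 62.6), 63.4% of STAT5A-alone regions (61.4 to 65.3) and 35.6% of LSD1-alone regions (34.8 to 36.4) were at gene starts, with median distances to a start of 0.245, 0.328 and 4.55 kb. The share for shared regions was 26.2% when STAT5A replicate 1 stood in for the pooled list and 70.6% with replicate 2. Around listed starts, shared regions were centred a median of 15 bp upstream (54.9% upstream) and STAT5A-alone regions 27 bp downstream (44.6% upstream).

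**Figure D3:**
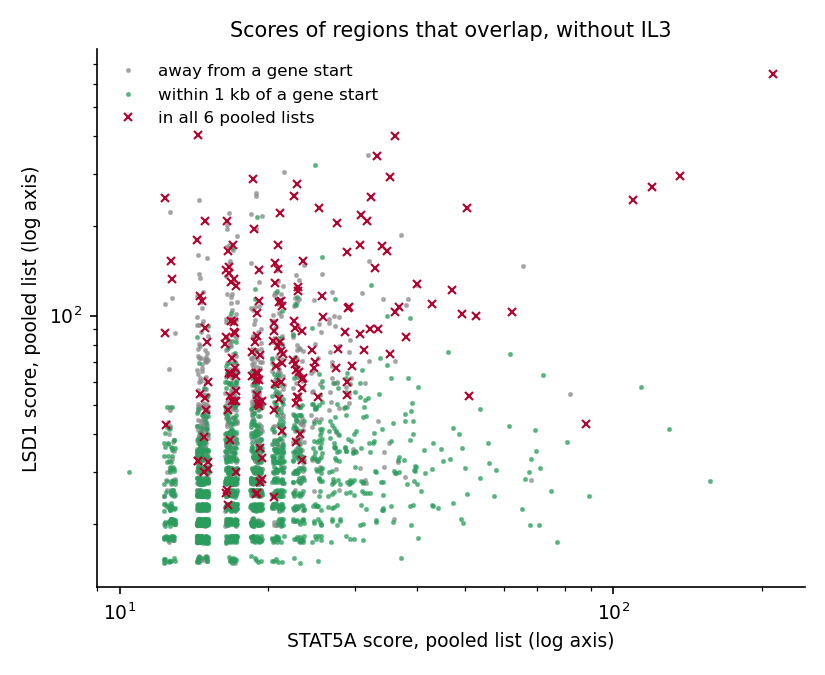
STAT5A score against LSD1 score of each of the 2650 overlapping pooled regions, both axes logarithmic, points moved slightly at random so that equal scores can be seen; green points lie within 1 kb of a gene start, grey points elsewhere, red crosses in all 6 pooled lists. The highest STAT5A scores outside the crosses are green with low LSD1 scores, and the highest LSD1 scores outside the crosses, those near Gpr84 (347.4) and Tigar (314.5), have STAT5A scores of 31.4 and 25.1.

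Scores of the proteins agreed weakly in rank. Spearman's rho over the 2650 shared regions was 0.27, with 0.30 over the 1609 at gene starts, 0.33 over the 1041 elsewhere and 0.25 over the 2478 not in all 6 pooled lists. Between single libraries of the 2 proteins rho was 0.20 to 0.23 (50 to 1946 regions). It was 0.51 between the LSD1 replicates (776 regions) and 0.11 between the STAT5A replicates (86 regions). Rank agreement across proteins was thus below that of the LSD1 replicates and not below that of the STAT5A replicates. These are descriptions over regions of the same libraries, where regions are not replicates, and most scores lie within a few steps of the lowest.

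By STAT5A score, 5 of the 10 highest shared regions were in all 6 pooled lists. They lay in Cdk8 and Ift46, and 61130, 282080 and 24380 bp from Axin2, Pex2 and Rpp21. The other 5 lay 19 to 123 bp from a listed start and were named for Arhgef1 (157.1), Pcbp2, an RNA-binding protein gene (132.0), Cipc (115.2), Ncbp3, a cap-binding protein gene (90.1), and Paip2b, an inhibitor of poly(A)-binding protein (81.7), with LSD1 scores of 25.4 to 58.3. The Cipc and Pcbp2 regions lay nearest the start of a neighbouring transcript. By LSD1 score, 7 of the 10 highest shared regions were in all 6 pooled lists. Among them were those named for Axin2 (639.1), Manba (413.4), Incenp (390.5, 39455 bp from the gene) and Rpp25, an RNase P subunit gene (339.8). Among the rest were those near Gpr84, a G-protein-coupled receptor gene of myeloid cells (347.4), and Tigar, a p53-induced regulator of glycolysis (314.5). At the Gpr84 region (chr15:103305307-103305479) LSD1 replicates 1 and 2 scored 362.9 and 347.4, and STAT5A was called in replicate 2 alone at 37.3. At the Tigar start (chr6:127109672-127109844) LSD1 scored 226.8 and 350.4, and STAT5A again in replicate 2 alone at 37.3.

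STAT5A-alone regions headed by score were at the starts or bounds of Srm, spermidine synthase (100.6, chr4:148591340-148591498), Klf10, a TGF-beta-induced repressor (77.5), Mrpl12 (73.3), Ttbk2, a kinase of primary cilia (71.2), Hexim1 (67.0), Maf1 (64.9), Tepsin (60.8) and Mxd4, a MYC antagonist (56.6). The Srm region was called in STAT5A replicate 2 alone, at 152.8. The remaining 2 of the 10, near Rpusd4 and Dpy19l2, were called in STAT5A replicate 1 alone. Of the 10 LSD1-alone regions highest by score, those inside a gene were in Plin3 (294.2), Clasp2, Extl3, Mrtfa and Slc9a9. The others lay 4319 bp from Cebpe (246.0), 48307 bp from Azin1, 98646 bp from Skap2, 23178 bp from Epn2 and 22893 bp from Olfr225. All 10 were called in both LSD1 libraries, and those at Slc9a9 and Epn2 also in 1 STAT5A library each (38.3 in replicate 1 and 23.8 in replicate 2). Of these 10, 0 lay within 1 kb of a gene start or bound, against 8 of 10 STAT5A-alone regions.

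**Figure D4:**
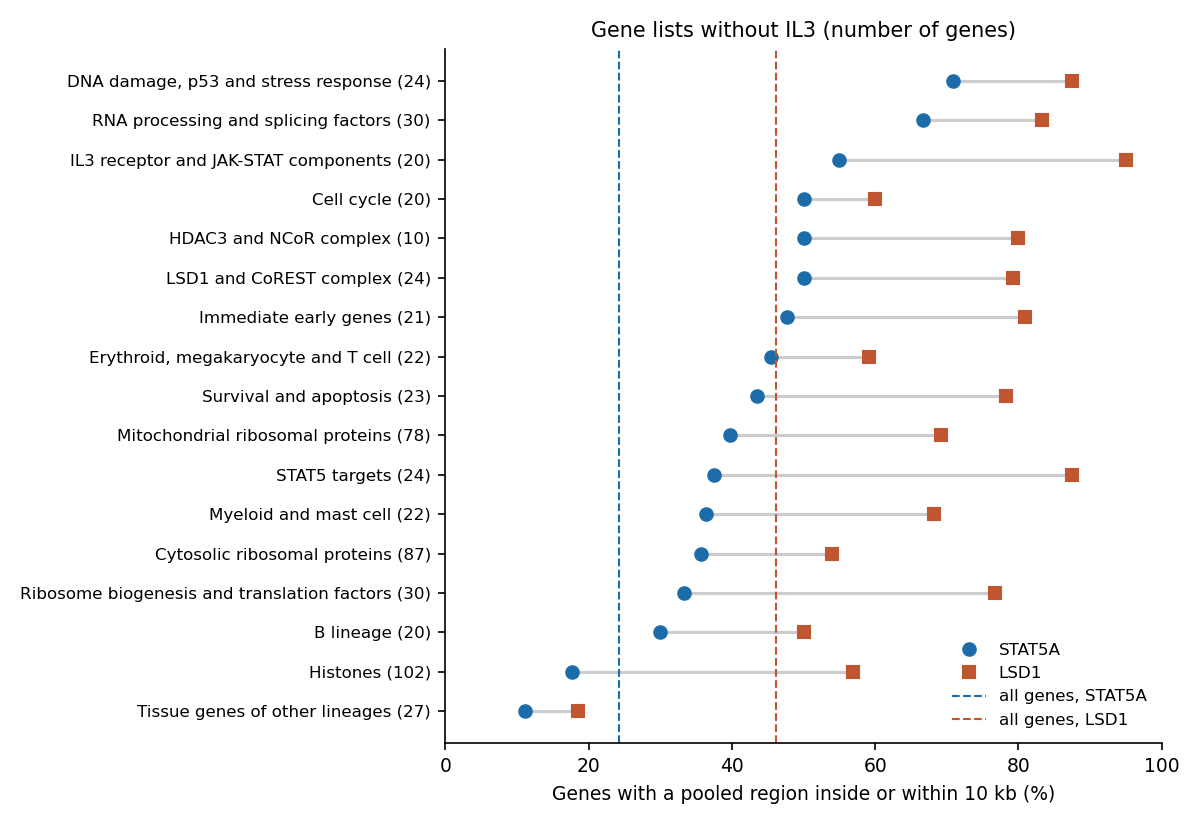
Share of the genes of each list with a pooled STAT5A (circles) or LSD1 (squares) region inside them or within 10 kb, with the share among all 21887 protein-coding genes as dashed lines at 24.2% and 46.1%. Genes of other tissues lie to the left of both lines, and lists of the JAK-STAT pathway, stress response and RNA processing lie to the right of both.

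By gene, a region inside or within 10 kb was counted for each of 21887 protein-coding genes. Pooled STAT5A regions were near 5291 genes (24.2%) and pooled LSD1 regions near 10089 (46.1%); both were near 4728 (21.6%), STAT5A alone near 563 (2.57%) and LSD1 alone near 5361 (24.5%). Called in both replicates of both proteins were 68 genes (0.311%), among them Runx1, Zfpm1, Gse1 and Cbfa2t3 of blood cell regulation, the feedback inhibitor Cish, the BH3-only gene Bbc3, Nr4a1, Atf4, Hhex and Nfkb1. In both STAT5A and neither LSD1 replicate were 13 (0.0594%): Hexim1, Mrpl12 with its neighbour Slc25a10, Nagk, Ate1, Chmp6, Hspa9, Banf1 with Eif1ad, Slc25a45, and Tmem223 with Tmem179b and Taf6l. In both LSD1 and neither STAT5A replicate were 320 (1.46%). Without the condition on STAT5A replicate 1 these 3 counts were 636, 731 and 347, and without that on LSD1 replicate 1 they were 219, 13 and 5373. Neighbouring genes can share 1 region, and near both does not mean at the same position: the lists below count genes, and longer genes offer more room.

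Both proteins were near a larger share of the IL3 receptor pathway than of all genes. Of 20 genes from the receptor to the STATs, 11 (55%) were near a pooled STAT5A region and 19 (95%) near a pooled LSD1 region, against 24.2% and 46.1% of all genes, all 11 near both, and Stat2 near neither. The median length of these genes was 34.88 kb, against 17.17 kb for all genes, and the part of length was not tested. STAT5A lay 180 bp before the start of Jak2, the kinase bound to the receptor (44.1 in STAT5A replicate 2, with LSD1 over it at 48.8 in LSD1 replicate 2), and 289 bp after the start of Il3ra, the receptor's alpha chain (30.6 in STAT5A replicate 2). At the Stat5b start both proteins overlapped, STAT5A at 20.4 in replicate 2 and LSD1 at 39.6 in replicate 2. The highest LSD1 region of the list, 27.2 kb from the start of Csf2rb2, a beta chain gene of the receptor, scored 94.5 in LSD1 replicate 2 and overlapped a STAT5A region of 20.4 in STAT5A replicate 2.

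At several known STAT5 targets the highest STAT5A region lay at the start and the highest LSD1 region kilobases away. Of 24 such genes, 9 (37.5%) were near STAT5A and 21 (87.5%) near LSD1, all 9 near both. For 7 of the 9 the highest-scoring STAT5A region was within 1 kb of the gene's own start (a gene bound where no start is listed), against 2859 of 5291 (54.0%) over all genes, with a median of 0.31 kb. For LSD1 this held for 2 of 21, against 4280 of 10089 (42.4%) over all genes, with a median of 5.04 kb. This compares only the highest region of each gene, and LSD1 was not absent from these starts. Of 18 with a listed start, 6 (33.3%) had a pooled STAT5A region of any score within 1 kb. For LSD1 it was 7 (38.9%), and 5 had both, against 14.8% (STAT5A) and 28.4% (LSD1) of 17492 genes. At Cish, a SOCS-family inhibitor of the receptor, STAT5A lay 10 bp from the start (chr9:107296590-107296748, replicate 1 alone at 43.8) and LSD1 9.5 kb from it (75.6 and 67.0 in replicates 1 and 2). At Pim1, which encodes a survival kinase, STAT5A lay 53 bp after the start (30.6 in replicate 2) and LSD1 5.0 kb after it (chr17:29498034-29498206, 88.4 in replicate 2). The same order held at Socs3, with STAT5A 350 bp after the start (33.9 in replicate 2) and LSD1 5.6 kb before it (30.5 in replicate 2), and at Dusp5, a phosphatase of ERK, with 85 bp and 1.3 kb. Dusp5 also had an LSD1 region overlapping the STAT5A one, at 75.6 and 36.6 in replicates 1 and 2. LSD1 without pooled STAT5A was near Socs1 (3.4 kb from its start, 82.3 in replicate 2) and Osm, an IL6-family cytokine (3.9 kb from its nearest bound, 76.2 in replicate 2), and Il2ra, Ccnd2 and Igf1 were near neither. The list was used in earlier work on these data, and is not independent evidence of where STAT5A binds.

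Of 23 survival genes, 10 (43.5%) were near STAT5A and 18 (78.3%) near LSD1, where all genes had 24.2% and 46.1%. In Bbc3, which encodes the death-promoting BH3-only protein PUMA, both STAT5A libraries called a region 2.5 kb from the start (chr7:16312847-16313005) at 82.1 and 30.6. The highest LSD1 region lay 15.9 kb from the start, at 75.6 and 109.7, and LSD1 replicate 2 held 3 regions inside or within 10 kb of Bbc3. At the starts of Bcl2l11, which encodes the BH3-only protein BIM, and of Bcl2l1, which encodes BCL-XL, both proteins overlapped, with STAT5A at 40.7 and 37.3 in replicate 2 and LSD1 at 75.6 at both in replicate 1 and at 36.6 and 30.5 in replicate 2. Of 21 immediate early genes, 10 (47.6%) were near STAT5A and 17 (81.0%) near LSD1. The highest LSD1 region there, 4.1 kb before Zfp36, which encodes an mRNA-destabilising protein, scored 75.6 and 137.1, with STAT5A over it in the pooled list alone (20.9). The STAT5A region counted for Nr4a1 was the one at the start of Atg101. Of 20 cell cycle genes 10 were near STAT5A and 12 near LSD1, and Ccnd1, Ccnd2, Ccna2 and Cdk1 were near neither.

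Of 22 myeloid and mast cell genes, 8 (36.4%) were near STAT5A and 15 (68.2%) near LSD1, against 24.2% and 46.1% of all genes; for 2 of the 15 the highest LSD1 region was within 1 kb of the start. Lyl1, a helix-loop-helix factor of early blood cells, had LSD1 2.1 kb after its start (105.8 and 161.5) and Csf3r, the G-CSF receptor, 4.6 kb after its start (105.8 and 91.4), both without STAT5A over them. Of 22 erythroid, megakaryocyte and T cell genes, 10 (45.5%) were near STAT5A and 13 (59.1%) near LSD1. Gata2, which encodes a transcription factor of blood stem cells and mast cells, had its STAT5A region 84 bp before the start (chr6:88198501-88198659, 74.7 in replicate 2), overlapped by LSD1 at 27.4 in replicate 2. Of 20 B lineage genes, 6 (30.0%) were near STAT5A and 10 near LSD1, close to the shares among all genes. Several of these belong to neighbours: the region counted for Cd79a was at the start of Arhgef1, and the one for Vpreb1 and Igll1 at Top3b. Of the 20 B lineage genes, 5 were near both proteins, 1 near STAT5A alone and 5 near LSD1 alone. Among the rest, near neither protein, were Pax5, Ebf1, Cd79b, Rag2 and Il7r, but occupancy does not measure their expression. Of 27 genes of other tissues 3 (11.1%) were near STAT5A and 5 (18.5%) near LSD1.

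Of 24 genes of LSD1 and CoREST complexes, 12 were near STAT5A and 19 (79.2%) near LSD1, against 24.2% and 46.1% of all genes. Inside Gfi1b, 3.0 kb from its start, LSD1 scored 136.1 and 225.5 and STAT5A was called in replicate 1 alone at 43.8. At the start of Chd4, the NuRD remodeller, LSD1 was called at 91.4 in replicate 2 and the STAT5A region lay 6.9 kb away at 30.6 in replicate 2. Of 10 genes of HDAC3 and NCoR complexes, 5 were near STAT5A and 8 (80.0%) near LSD1, with a median gene length of 141.05 kb, and with overlapping regions at the start of Tbl1xr1 (STAT5A 54.3 in replicate 2, LSD1 75.6 and 57.9).

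RNA processing genes often had both proteins at their starts. Of 26 with a listed start, 16 (61.5%) had a pooled STAT5A and 20 (76.9%) a pooled LSD1 region within 1 kb of it, against 14.8% and 28.4% of 17492 genes. Regions of both proteins lay there in 13 of the 26, against 1997 of the 17492. Of 30 RNA processing genes, 20 (66.7%) were near STAT5A and 25 (83.3%) near LSD1, against 24.2% and 46.1% of all genes, and for 15 of the 20 the highest STAT5A region was within 1 kb of the start. STAT5A without LSD1 over it lay at the starts of Hnrnpc and Hnrnpl (33.9 and 30.6 in replicate 2), which encode RNA-binding proteins of splicing, and 62 bp before that of the helicase gene Ddx5 (30.6 in replicate 2), where the start of Cep95 is 5 bp away. Of 30 genes of ribosome biogenesis and translation, 10 (33.3%) were near STAT5A and 23 (76.7%) near LSD1. The STAT5A regions at the starts of the initiation factor genes Eif5 and Eif4a1, at 44.1 and 30.6 in replicate 2, had no LSD1 over them. Of 24 stress response genes, 17 (70.8%) were near STAT5A and 21 (87.5%) near LSD1: at Hspa5, the endoplasmic reticulum chaperone gene, STAT5A lay 119 bp before the start without LSD1 nearby (37.3 in replicate 2), and at Txnip, a thioredoxin inhibitor gene, both overlapped at the start (37.3 and 42.7 in replicate 2). Of 87 cytosolic ribosomal protein genes, 31 (35.6%) were near STAT5A and 47 (54.0%) near LSD1, and 12 near STAT5A alone, the highest Rpl10 (33.5 in the pooled list). Of 78 mitochondrial ribosomal protein genes, 31 (39.7%) were near STAT5A and 54 (69.2%) near LSD1. Of 102 histone genes, 18 were near STAT5A (17.6%, below the share of all genes) and 58 (56.9%) near LSD1, in clusters where 1 region can count for several genes. STAT5A replicate 1 contributed 0 to 5 genes to each of these lists except histones, with 9.

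**Figure D5:**
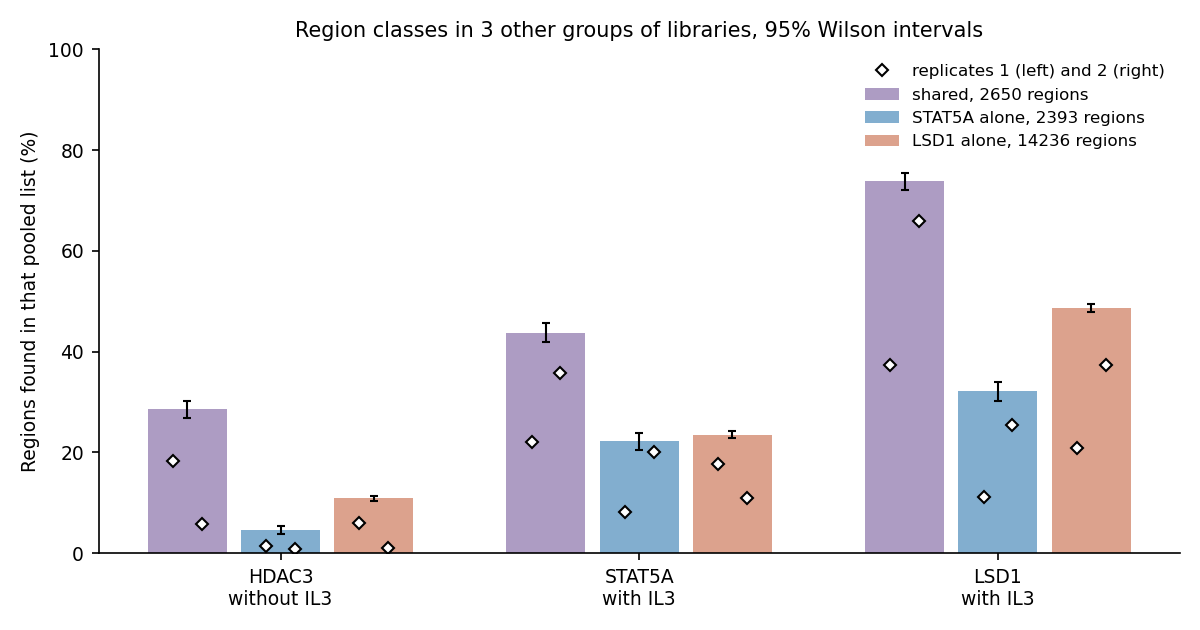
Share of shared, STAT5A-alone and LSD1-alone pooled regions found in the pooled lists of HDAC3 without IL3, STAT5A with IL3 and LSD1 with IL3 (bars, 95% Wilson intervals) and in each replicate list (diamonds, replicate 1 left and 2 right). Shared regions have the highest bar and the highest diamonds in each group.

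Pooled regions of both proteins were found in the pooled lists of HDAC3 and of both proteins with IL3 more often than regions of either alone. HDAC3 without IL3 was at 28.5% of shared, 4.51% of STAT5A-alone and 10.9% of LSD1-alone regions. By HDAC3 replicate these were 18.2% and 5.74%, 1.5% and 0.878%, and 6.01% and 0.976%, in the same order, so that shared regions were highest in both libraries. Without regions in all 6 pooled lists, which contain HDAC3 by definition, 23.6% of shared regions had HDAC3. With these regions put back, the share was larger away from gene starts, 47.3% of 1041 shared regions, than at them, 16.4% of 1609. Regions in all 6 lists made up 146 of the 1041 and 26 of the 1609, and the alone classes held 0. Part of these gaps is therefore given by definition. Elsewhere than at starts, HDAC3 was at 4.57% of STAT5A-alone and 12.9% of LSD1-alone regions. With IL3, STAT5A was called at 43.7% of shared, 22.2% of STAT5A-alone and 23.5% of LSD1-alone regions, and LSD1 at 73.8%, 32.1% and 48.6%. Of the STAT5A-alone regions at gene starts 40.5% had LSD1 with IL3, against 17.5% of those elsewhere. Median scores were higher at shared regions, and the part of score in these shares was not tested.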

How the data were processed

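ChIP-seq reads were handled by the authors with Trimmomatic 0.30, Bowtie2 2.1.0, Picard 1.92 and HOMER 4.8 on mm10, per the submitters' processing notes. For the peak caller, its control, threshold and filters were not given in the sources used here. The deposited value of each region is a score without a stated definition, used only to rank regions within a list. Read totals are unknown here, so depth is read from score steps. The input library was not used.

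Python 3.11.15 with numpy 2.4.6, scipy 1.17.1 and pandas 2.3.3 was used. Files were converted to positions counted from 1. Gene starts are 32851 listed RefSeq starts, plus both bounds of 4395 of 21887 protein-coding genes that have none listed. Regions are named by the gene they lie in or the nearest bound, at any distance. The 10 kb limit for counting genes does not apply to these names. Wilson's method at 95% gave the intervals, which hold counting error and not the spread between libraries. An exact permutation test, two-sided, served for values per library. Overlap, merging, distance and step functions were tested on simulated data. Members and gene lists were chosen with earlier results of these data known, and CGCTCTA and CTCTATG after the promoter windows were seen. Named genes are those of the 10 highest-scoring regions per class (by summed ranks of the replicates for classes of replicate calls) and up to 6 per list and protein, with some added after their values were seen. Some items are not reported here.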

Additional observations from a re-analysis of the deposited data

How the results depend on the processing

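Of 128 alternatives over 14 results, 52 were labelled unchanged, 73 moved the value and 3 turned its direction. For region number and start share per library, the unchanged label meant only that the sign held, since p could not fall below 0.05. A shift from -9.97 to -37.7 points in the 350 highest-scoring regions of each list was thus labelled unchanged. The cause of the changes was not tested. The log2 difference in region number (1.66) was -0.18 without STAT5A replicate 1 and -0.33 without LSD1 replicate 2 (leaving out 1 library each, -0.33 to 3.65). The difference in the share at gene starts (-9.97 points) was 10.5 without STAT5A replicate 2 (-30.4 to 10.5). With the replicate number as a block (replicate block) the paired values were 1.66 (exact permutation p = 0.5, the smallest 2 pairs allow) and -9.97 (p = 1), and with crossed pairing the same values had p = 1. Over merged regions, the difference in calls between replicates 1 and 2 of STAT5A correlated at -0.5 with that of LSD1. Only regions called in at least 1 list enter this value, so it does not show whether same-numbered libraries pair. Nothing in the labels pairs them. By score over regions called in both, the rank agreement of same-numbered libraries was 0.22 for replicates 1 and 0.21 for replicates 2.

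Counting only overlaps of at least 50% of the shorter region gave STAT5A and LSD1 overlap shares of 38.4% and 11.5%, a rho of 0.29, start shares of 58.6% (shared) and 37.1% (LSD1 alone) and 13 regions in all 4 libraries. Counting regions within 200 bp gave 64.8% and 19.6%, with start shares of 64.1% (shared), 58.0% (STAT5A alone) and 33.5% (LSD1 alone). The higher-scoring 50% of each list gave 45.4% and 13.6%, start shares of 54.2%, 76.1% and 32.1%, 15 regions in all 4 libraries, 283 in LSD1 alone and 23 genes in all 4. Leaving out regions in all 6 pooled lists before the lists were compared gave 50.4% and 14.7%, a rho of 0.25, a start share of 64.1% for shared regions and 7 regions in all 4. For shared, STAT5A-alone and LSD1-alone regions the start shares were 56.2%, 56.6% and 29.8% within 500 bp, 70.9%, 73.6% and 51.2% within 5 kb, 51.5%, 54.2% and 30.5% with listed starts only, and 53.8%, 55.9% and 30.8% with either bound of a gene. Genes in all 4 libraries numbered 40 within 1 kb and 252 within 50 kb, and genes of STAT5A alone 2 within 50 kb.

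Leaving out 1 library each, overlap was 6.4% to 66.2% of STAT5A and 1.38% to 32.1% of LSD1 regions, rho 0.20 to 0.25, and start shares 26.2% to 70.6% (shared), 32.8% to 68.1% (STAT5A alone) and 32.8% to 41.3% (LSD1 alone). Regions in all libraries numbered 21 to 238, in STAT5A alone 17 to 2518 and in LSD1 alone 536 to 13684. Genes numbered 68 to 636, 13 to 731 and 329 to 5373. The lists of STAT5A replicate 1 and LSD1 replicate 1 are short, and the part of depth in this was not tested.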
